A study of Homo sapiens with 25 samples.

Results

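The DNA replication and G1/S genes described here are 42 genes whose products prepare replication origins, unwind and copy DNA, or drive the entry into S phase. They were chosen by name, as rows of a table of normalized counts, with earlier results of these data known. All 42 names were found among the 36755 genes of the table, and all 42 were among the 22994 genes that passed the filter on low values. The RNA came from Jurkat cells, an established human T-cell leukaemia line that grows in suspension, kept in media with graded amounts of histidine. Day 6 is represented by 2 libraries at 12.5% histidine and by 3 at each of 25%, 50% and 100%. Day 3 is represented by 3 libraries at each of 0% (medium without histidine), 12.5%, 25% and 50%, and by 2 at 100%. All groups are the same line with no other treatment named, and the amount that 100% stands for is not stated. The labels do not say whether replicates grew as separate cultures. The p-values therefore describe the spread among these 25 libraries alone, and that spread may be technical.

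Copying of DNA is prepared in G1, when the origin recognition complex (ORC) marks origins and CDC6 and CDT1 load the ring-shaped helicase MCM2 to MCM7 onto them. At the start of S phase CDC45 and the GINS complex join the ring, with the help of MCM10, and turn it into the working helicase. Polymerase alpha with primase starts each strand, replication factor C (RFC) loads the sliding clamp PCNA, polymerases epsilon and delta extend the strands, and FEN1 and LIG1 finish and join the pieces of the lagging strand. Many of these genes are transcribed at the passage through G1 into S by E2F factors, which recognise short GC-rich motifs close to the start of transcription. Histidine is an amino acid that human cells take from the medium, and T-cell leukaemia lines replicate their DNA continuously while they are fed.

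The promoters are shown first because the letters of E2F motifs were not used in choosing the genes. The choice is still not independent of these motifs, since E2F factors transcribe many of these genes. Promoter sequences came from RefSeq (build GRCh38.p14), taken as the 250 bases before the annotated start of 1 transcript start per gene symbol, and 36 of the 42 genes had one. The search used the letters TTTCCCGC, TTTCGCGC, TTTGCCGC and TTTGGCGC on both strands, and matches may overlap. An E2F motif was present in 13 of these 36 promoters (36.1%), namely those of CDT1, E2F1, GINS2, LIG1, MCM3, MCM6, MCM7, PCNA, POLA1, POLA2, POLE, RFC3 and UHRF1. Among all 27305 promoters of the table that were searched, 761 (2.79%) held one, and so did 1 of 20 promoters (5%) of G2/M and mitosis genes. The promoters compared were not matched for GC content. The CCAAT box, searched on both strands, was in 22 of the 36 promoters (61.1%), in 16 of the 20 G2/M promoters (80%) and in 9021 of all promoters (33%). The letters TTTGAA, a core of the element called CHR that many genes of mitosis carry, were in none of the 36 promoters, in 10 of the 20 G2/M promoters (50%) and in 13.6% of all promoters. A match describes the letters in this window and not a bound site, and no match says only that these letters are not in it.

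The 6 promoters printed below are, among the 13 with an E2F motif, those of the 4 genes with the largest fall and the 2 with the smallest change on day 3 without histidine. They are written 5′ to 3′ on the strand of the gene, in lower case with the E2F matches in capitals. CDT1, on the plus strand, is at chr16:88803539-88803788, RFC3, on the plus strand, at chr13:33817899-33818148, POLE, on the minus strand, at chr12:132687343-132687592, MCM6, on the minus strand, at chr2:135876444-135876693, MCM7, on the minus strand, at chr7:100101398-100101647, and POLA1, on the plus strand, at chrX:24693668-24693917.
CDT1: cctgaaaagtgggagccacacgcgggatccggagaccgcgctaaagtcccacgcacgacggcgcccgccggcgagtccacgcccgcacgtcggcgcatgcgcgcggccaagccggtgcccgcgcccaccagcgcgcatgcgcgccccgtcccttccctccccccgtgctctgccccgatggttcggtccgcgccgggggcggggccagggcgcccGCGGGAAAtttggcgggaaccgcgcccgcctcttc
RFC3: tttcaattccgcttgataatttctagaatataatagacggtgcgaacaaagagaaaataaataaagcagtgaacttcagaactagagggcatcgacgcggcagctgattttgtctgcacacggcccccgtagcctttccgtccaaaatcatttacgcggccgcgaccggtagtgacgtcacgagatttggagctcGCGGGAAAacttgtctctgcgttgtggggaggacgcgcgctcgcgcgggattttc
POLE: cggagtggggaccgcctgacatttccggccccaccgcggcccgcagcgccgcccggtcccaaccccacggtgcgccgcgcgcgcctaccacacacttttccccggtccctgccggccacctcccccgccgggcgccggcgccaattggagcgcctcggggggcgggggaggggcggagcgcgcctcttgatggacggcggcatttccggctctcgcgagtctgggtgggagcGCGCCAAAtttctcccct
MCM6: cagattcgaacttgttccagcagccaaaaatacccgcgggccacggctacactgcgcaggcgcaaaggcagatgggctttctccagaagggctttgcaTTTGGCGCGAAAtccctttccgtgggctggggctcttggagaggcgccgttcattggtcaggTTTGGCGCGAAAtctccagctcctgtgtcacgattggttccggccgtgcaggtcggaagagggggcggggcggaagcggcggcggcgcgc
MCM7: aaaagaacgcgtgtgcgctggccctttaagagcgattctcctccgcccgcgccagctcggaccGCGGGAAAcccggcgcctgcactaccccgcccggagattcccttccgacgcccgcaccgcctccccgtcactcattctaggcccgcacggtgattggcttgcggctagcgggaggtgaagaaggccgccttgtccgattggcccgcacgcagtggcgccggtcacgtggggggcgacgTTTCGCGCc
POLA1: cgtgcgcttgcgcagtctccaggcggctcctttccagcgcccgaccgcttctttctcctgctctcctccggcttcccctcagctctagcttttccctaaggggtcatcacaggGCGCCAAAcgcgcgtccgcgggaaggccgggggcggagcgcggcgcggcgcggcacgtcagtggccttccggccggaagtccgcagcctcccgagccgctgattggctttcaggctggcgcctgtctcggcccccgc
The matches of MCM6 are 4, which overlap in pairs on opposite strands, and MCM7 has 2. The RefSeq starts of CDT1, RFC3, POLE and MCM7 used here lie inside the span of the gene in GENCODE 29. On day 3 without histidine all 13 genes with a motif were lower than at 100% at an adjusted p under 0.05 in limma (median log2 fold change -0.94), and so were 20 of the 23 genes with a promoter but no motif (median -1.18), while 16.1% of all tested genes were lower. At 12.5% on day 3, 8 of the 13 were higher and 3 lower (median 0.32), and 8 of the 23 were higher and 4 lower (median 0.12), while 14.2% of all tested genes were higher and 12% lower. Whether genes with and without a motif differed was not tested.

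**Figure D1:**
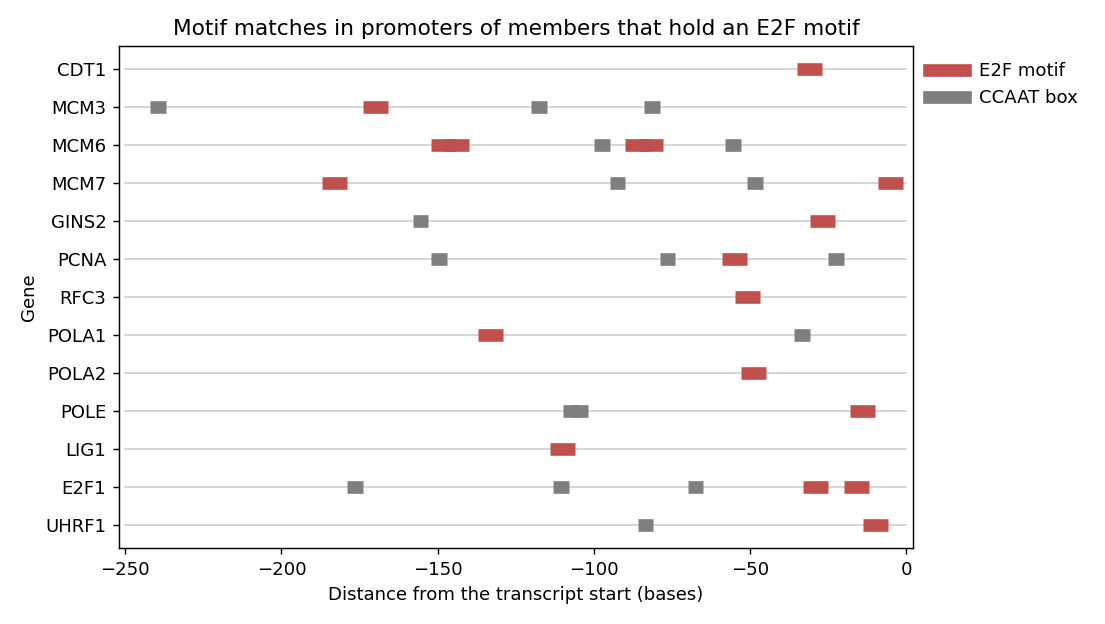
Positions of E2F and CCAAT matches, in bases from the annotated start, in the 13 of 36 promoters of DNA replication and G1/S genes that hold an E2F motif. MCM6 carries 4 E2F matches and MCM7 carries 2, as printed in the sequences.

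Values are counts that the authors normalized between libraries, and each gene's differences were tested with limma on log2(value + 1), where a gene was called at a Benjamini-Hochberg adjusted p under 0.05. Levels are given in these normalized counts, changes against 100% histidine as log2 fold changes on that scale with their standard error (SE), and group means with the standard deviation (SD). The libraries summed to between 18.44 and 21.38 mega-counts after normalization (median 19.86), and their true depth is not known. The T-lymphoblast markers were present in every library, with CD3E between 15440 and 30630, but CD28 only between 18.51 and 93.43 and LMO1 between 51.3 and 235.2. The B-cell marker MS4A1 was at 0 in 19 of the 25 libraries and reached at most 3.013. The B-cell markers CD79A (192.2 to 655.4) and BLK (93.03 to 225.9) were above 0 in every library. Marker sums moved with histidine and with the day. On day 3 the T-lymphoblast sum was 92470 to 95500 without histidine against 66040 to 70900 at 100%, and the B-cell sum, mostly CD79A and BLK, was 722.5 to 855 without histidine, 836.2 to 862.9 at 12.5% and 748.1 to 857.7 at 25%, against 329.4 to 381.8 at 100%. Erythroid markers summed to 191.4 to 5042 and matrix markers to 1624 to 12200 over the libraries, and muscle transcripts stood out in replicate 2 of 25% on day 6 (38630, against at most 130 in the others). The erythroid sums were 3530 to 5042 in libraries numbered 3, 4, 5, 11, 12, 13, 19, 20 and 21 in the labels. Number 22 had 3137, and the others had at most 553.9. This pattern recurs every 8 library numbers. It took in all 3 libraries of 50% on day 3 and neither library of 100% (281.1 and 527.5). Replicate 3 of 50% and of 100% on day 6 had 19624 and 19484 genes at 10 or more, above all other libraries. The part of these markers and libraries in the results was not tested, beyond leaving out the 3 libraries and a term for the library number. That term was the library number modulo 8, the period of the erythroid sums, and its member counts stand with the other settings. The origin of the pattern was not tested. In 14 of the 42 genes an exon overlaps one of a gene on the opposite strand in GENCODE 29. Examples are RFC4 with EIF4A2, RPA1 with SMYD4, MCM7 with AP4M1, FEN1 with TMEM258 and MCM2 with TPRA1. In 5 of the 42 the overlap is with a gene on the same strand, such as PRIM1 with NACA. Whether strand was used in counting is not given in the sources used here, so shared reads cannot be told apart for those genes.

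Across the 9 groups the members moved mainly with the complete absence of histidine on day 3. Their values added up to 60830 to 61490 in the libraries without histidine, 130100 to 134000 at 12.5%, 119600 to 125000 at 25%, 111200 to 113000 at 50% and 110100 to 114700 at 100%. On day 6 the sums were 85540 to 88990 at 12.5%, 83560 to 92770 at 25%, 86040 to 89870 at 50% and 84700 to 90170 at 100%. In these sums the 3 libraries without histidine lay below every other library, the 12.5% libraries of day 3 lay above every other library, and the 4 groups of day 6 overlapped each other. A sum weighs the abundant genes most, such as MCM7, and the members called lower at 12.5% are counted below. On day 3 the group without histidine had the lowest mean for 39 of the 42 genes and the 12.5% group the highest for 24. How often these groups were lowest or highest over all tested genes was not counted. In bulk RNA, fewer cells in S phase and less RNA of these genes per cell cannot be told apart.

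**Figure D2:**
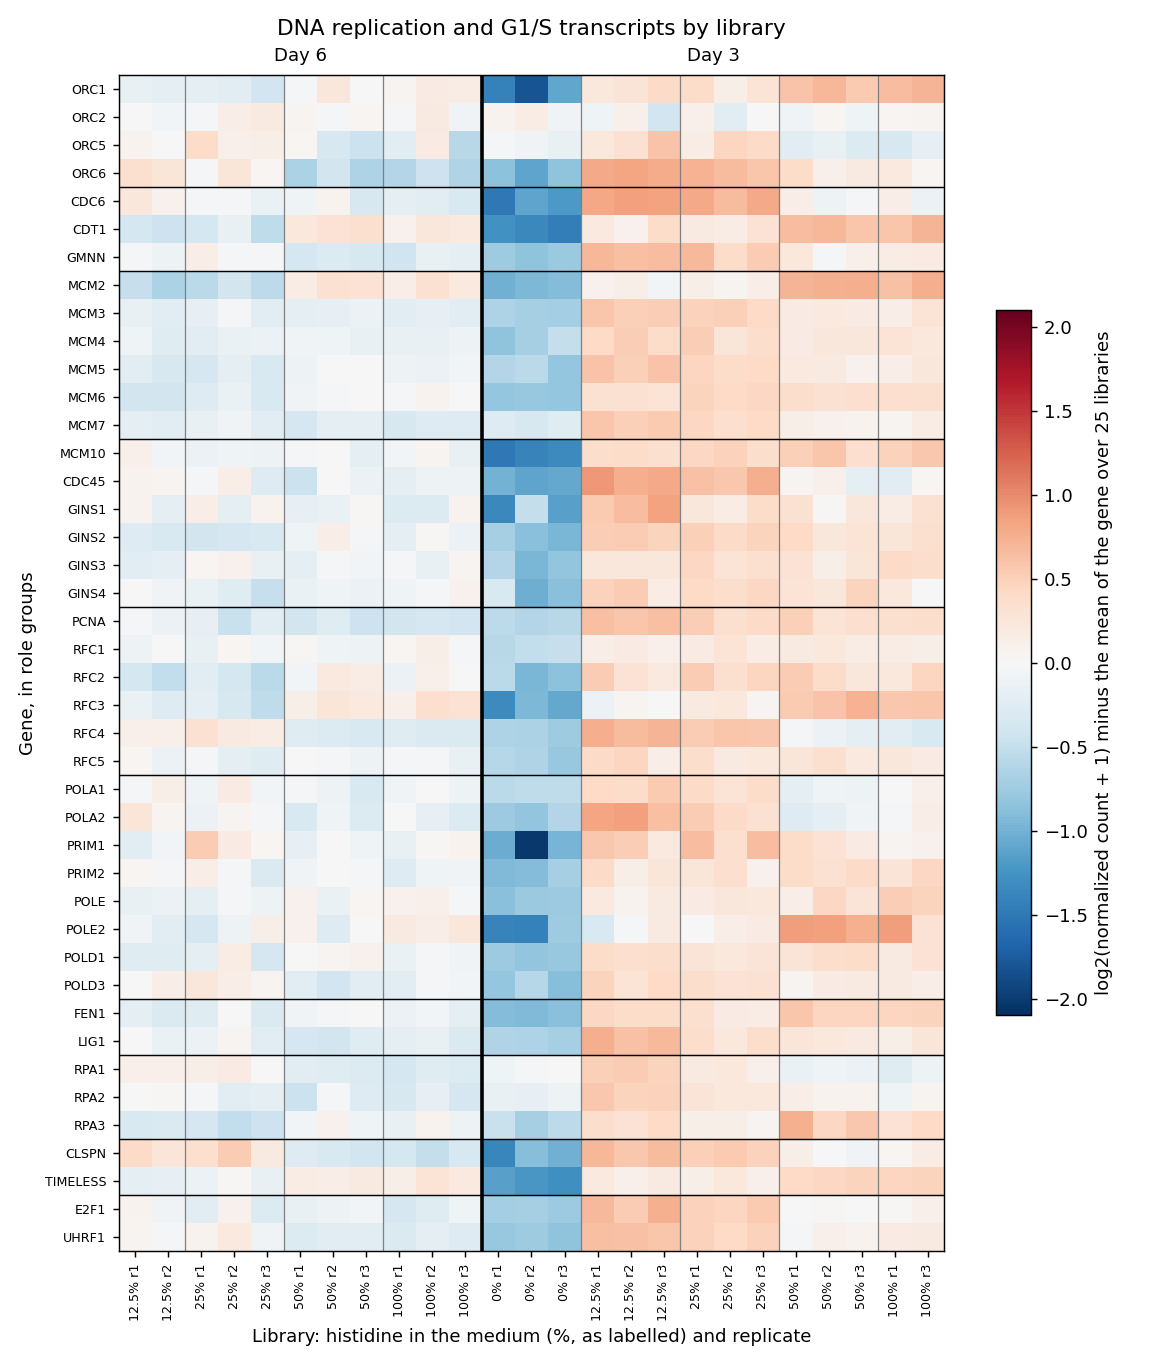
Each gene's log2(value + 1) minus its mean over the 25 libraries, for 42 genes (down the page, by role) and 25 libraries (day 6 left of day 3, histidine low to high within a day). The day 3 libraries without histidine are low for nearly all genes, with medians over genes of -0.81 to -0.76, and the day 3 libraries at 12.5% are high, with medians of 0.43 to 0.47.

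Day 3 without histidine set against 100% asks what the genes did when the amino acid was absent. Of the 42 genes, 38 were lower (90.5%, against 16.1% of all tested genes called lower) and none was called higher, while 14.8% of all tested genes were. The median log2 fold change of the members was -0.97, beside -0.02 over all tested genes. At an unadjusted p under 0.05 in limma, 1 member was higher, RPA1, which was also called without replicate 3 of 100% (adjusted p = 0.0277). At that unadjusted p, 4343 of the 22994 tested genes were higher. The largest falls were those of ORC1, CDT1 and MCM10, and the 4 genes not called were ORC2, ORC5, RPA1 and RPA2. At 12.5% on day 3, 18 of the 42 were higher (42.9%, against 14.2% of all genes) and 7 lower (16.7%, against 12% of all genes, which is near that share), with a median of 0.24 for the members and -0.04 for all genes. At 25% on day 3, 16 were higher (38.1%, against 9.81%) and 7 lower (16.7%, against 9.72%), with a median of 0.12 beside 0.00. Scaling each library to the same sum turned the split over all genes at 25% into 3058 higher and 1774 lower, against 2256 higher and 2234 lower as deposited, and left 4 members lower. In the same 25% comparison, leaving out replicate 1 of 100% on day 3 left 8 members higher and 4 lower. At 50% on day 3 no member was called in either direction (0% of all genes in each direction), and 4 passed an unadjusted p under 0.05 in limma. Of the 22994 tested genes, 1075 passed that unadjusted p.

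On day 6, which has no group without histidine, members were called in both directions at 12.5% and at 25%. The B-cell marker sum was 485 to 541.1 at 12.5% and 473 to 517.2 at 25%, against 345.7 to 414.3 at 100% on that day, and its part in the results was not tested. At 12.5%, 9 members were higher (21.4%, against 10.8% of all genes) and 6 lower (14.3%, near the 11.1% of all genes), with medians of 0.02 for the members and 0.00 for all genes. At 25%, 8 were higher (19%, against 11%) and 10 lower (23.8%, against 9.24%), with medians of 0.07 and -0.02. At 50% no member was called by limma, and 1, POLD3, passed an unadjusted p under 0.05, where 0.00435% of all genes were called lower and 0% higher. Of the 22994 tested genes, 1098 passed that unadjusted p. Without replicate 1 of 12.5% on day 6 the members higher at 12.5% were 4. In the 25% comparison of day 6, 6 members were lower without replicate 2 of 100%, and 5 were higher without replicate 1 of 100% or replicate 1 of 25%. Without replicate 2 of 25% and replicate 3 of 50% and of 100% together, 6 were lower.

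**Figure D3:**
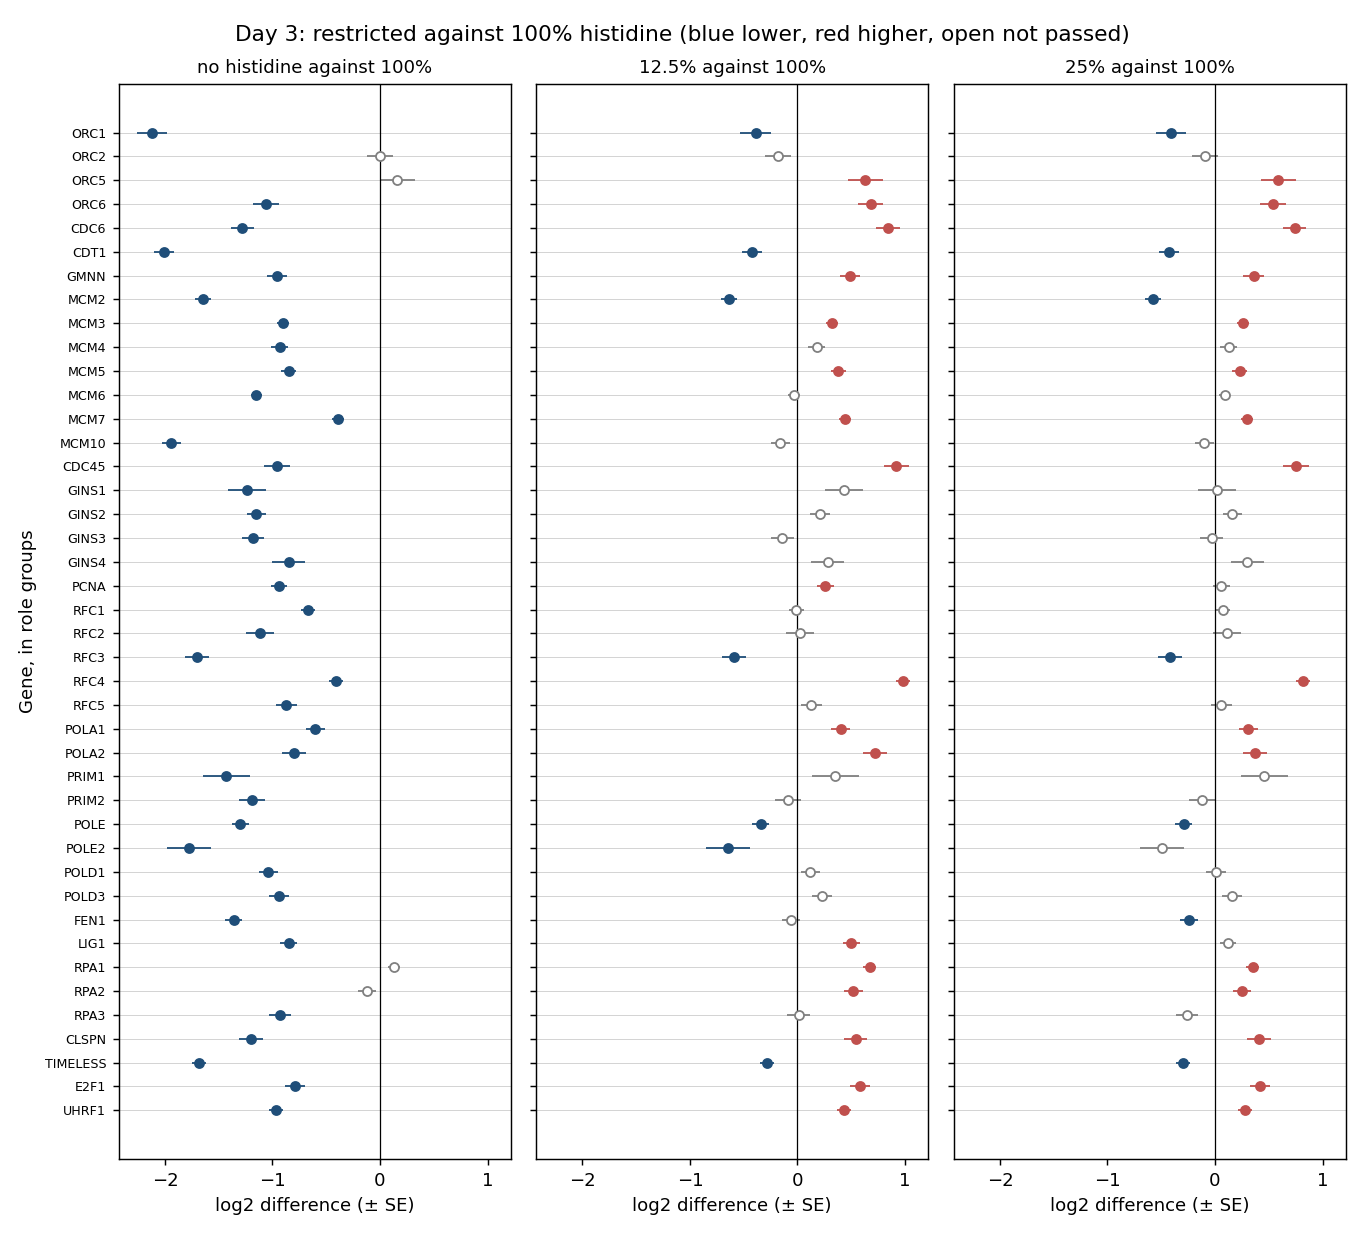
Log2 fold change with its SE on day 3 for each of the 42 genes, without histidine, at 12.5% and at 25%, each against 100%. Filled blue points are called lower, filled red points called higher and open points were not called; without histidine 38 points are blue and none is red, while at 12.5% 18 are red and 7 blue.

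Of the 4 ORC genes, ORC1 and ORC6 fell without histidine and ORC2 and ORC5 were not called. ORC1, the subunit whose amount follows the cell cycle in human cells, had 189.6, 144 and 239 normalized counts without histidine, 591, 614 and 670.5 at 12.5%, 663, 555 and 623 at 25%, 772, 824 and 747 at 50% and 799 and 833 at 100% on day 3. Its libraries without histidine lay below all others, and those at 12.5% and 25% lay below those at 50% and 100%. The change against 100% was -2.12 (SE 0.14, adjusted p = 5.95e-12) without histidine, -0.39 (SE 0.14, adjusted p = 0.0468) at 12.5% and -0.41 (SE 0.14, adjusted p = 0.0409) at 25%. ORC6, a subunit that also acts at loading of the MCM ring, had 299.5, 253 and 302 without histidine, 941, 967 and 938 at 12.5%, 905, 862 and 816 at 25%, 713, 586 and 622 at 50% and 628 and 559 at 100%. It was lowest without histidine and highest at 12.5% and 25%, where no library overlapped the others, with -1.06 (SE 0.12, adjusted p = 6.73e-08) without histidine and 0.68 (SE 0.12, adjusted p = 7.39e-05) at 12.5%. On day 6 ORC6 had 688 and 651 at 12.5%, 532, 648 and 557 at 25%, 343, 415 and 346 at 50% and 356, 402 and 352 at 100%. It rose at 12.5% and 25% without overlap with 100%, by 0.86 (SE 0.12, adjusted p = 4.54e-06) and 0.64 (SE 0.11, adjusted p = 5.46e-05). ORC1 on day 6 averaged 421 ± 33.7 at 25% against 557 ± 26.4 at 100% (SD, n = 3 each), a fall of -0.41 (SE 0.13, adjusted p = 0.024) that was lost without replicate 2 or 3 of 100% or replicate 3 of 25% (adjusted p 0.0731 to 0.105). ORC2, a core subunit, had 837, 882 and 758 without histidine and 814 and 831 at 100%, which overlap, with a difference of 0.00 (SE 0.12, adjusted p = 0.993). It was called in none of the comparisons with 100%. ORC5, another core subunit, averaged 606 ± 25.2 without histidine, 844 ± 118 at 12.5% and 819 ± 88.5 at 25%, against 542 ± 44.1 at 100% (SD, n = 3, 3, 3 and 2). It rose by 0.63 (SE 0.16) and 0.59 (SE 0.16) at 12.5% and 25% on day 3, and by 0.42 (SE 0.14) at 25% on day 6. The ORC1 call at 12.5% was lost without either library of 100% or without replicate 1 or 2 of 12.5% (adjusted p 0.0956 to 0.201). Its call at 25% was lost without either library of 100% or without replicate 2 or 3 of 25% (0.0713 to 0.21). The ORC5 calls at 12.5% and 25% of day 3 were lost without replicate 1 of 100% (0.0701 and 0.116), and that of day 6 without replicate 1 or 3 of either group (0.0535 to 0.315). ORC5 was called higher at 12.5% on day 6 without replicate 2 of 100% (adjusted p = 0.0462).

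CDC6 and CDT1, which load the MCM ring together, moved apart under partial restriction. CDC6 had 515, 676 and 629 without histidine, 2574, 2655 and 2633 at 12.5%, 2534, 2315 and 2519 at 25%, 1603, 1358 and 1432 at 50% and 1604 and 1342 at 100% on day 3. CDT1 had 961, 906 and 849 without histidine, 2668, 2489 and 3048 at 12.5%, 2645, 2588 and 2875 at 25%, 3626, 3755 and 3469 at 50% and 3470 and 3826 at 100%. Both were lowest without histidine, with -1.28 (SE 0.11, adjusted p = 6.62e-10) for CDC6 and -2.01 (SE 0.093, adjusted p = 3.58e-15) for CDT1, while at 12.5% every CDC6 library lay above and every CDT1 library below those at 100%. The fold changes at 12.5% were 0.84 (SE 0.11, adjusted p = 1.48e-06) for CDC6 and -0.42 (SE 0.093, adjusted p = 0.00102) for CDT1. On day 6 CDT1 had 1799 and 1712 at 12.5% and 1805, 2086 and 1608 at 25%, against 2724, 2865 and 2951 at 50% and 2486, 2739 and 2688 at 100%. It fell at both lower levels without overlap, with -0.59 (SE 0.093, adjusted p = 2.76e-05) and -0.53 (SE 0.083, adjusted p = 2.64e-05). CDC6 on day 6 averaged 1633 ± 126 at 12.5%, 1387 ± 61.6 at 25% and 1231 ± 50.1 at 100% (SD, n = 2, 3 and 3). It was called at 12.5%, with 0.41 (SE 0.11, adjusted p = 0.00774), and not at 25%, where the change was 0.17 (SE 0.099, adjusted p = 0.252). GMNN (geminin), which binds CDT1 and blocks a new round of loading, averaged 603 ± 20.6 without histidine, 1643 ± 36.6 at 12.5% and 1510 ± 155 at 25%, against 1173 ± 10.4 at 100% on day 3 (SD, n = 3, 3, 3 and 2). It fell without histidine, with -0.96 (SE 0.095), and rose by 0.49 (SE 0.095) at 12.5% and 0.36 (SE 0.095) at 25%. On day 6 it rose at 25%, by 0.29 (SE 0.085), a call lost without replicate 1 of 100% (adjusted p = 0.129) or of 25% (0.0945). The CDC6 call of day 6 was lost without replicate 1 of 12.5% (adjusted p = 0.132), and the GMNN call at 25% on day 3 without replicate 1 of 100% (0.0553) or of 25% (0.0512).

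The 6 subunits of the MCM2 to MCM7 helicase all fell without histidine, with a median log2 fold change of -0.92, and did not keep together at the partial levels. MCM2 had 2336, 2453 and 2503 without histidine, 5017, 5113 and 4511 at 12.5%, 5116, 4919 and 5220 at 25%, 7740, 7937 and 8009 at 50% and 7263 and 7987 at 100% on day 3. The 12.5% and 25% libraries lay between those without histidine and those at 50% and 100%, with no overlap. The fold changes were -1.65 (SE 0.074, adjusted p = 2.34e-15) without histidine, -0.64 (SE 0.074, adjusted p = 1.96e-07) at 12.5% and -0.58 (SE 0.074, adjusted p = 1.54e-06) at 25%. MCM7 had 10530, 10020 and 10640 without histidine, 18980, 17940 and 18480 at 12.5%, 17200, 16120 and 16950 at 25%, 13730, 13540 and 13380 at 50% and 13140 and 14110 at 100%. Its libraries were highest at 12.5% and then at 25%, with 0.44 (SE 0.055, adjusted p = 7.76e-07) and 0.30 (SE 0.055, adjusted p = 0.000229), and lowest without histidine, with -0.39 (SE 0.055, adjusted p = 3.27e-06). MCM3 and MCM5 had the same order as MCM7. MCM3 averaged 3827 ± 77.8 without histidine, 8934 ± 274 at 12.5% and 8533 ± 228 at 25%, against 7151 ± 470.1 at 100% (SD, n = 3, 3, 3 and 2). MCM5 averaged 2140 ± 189, 4993 ± 196 and 4495 ± 110.1 at those restricted levels, against 3839 ± 174 at 100%. Their rises at 12.5% were 0.32 (SE 0.056) and 0.38 (SE 0.070). MCM4 and MCM6 were called without histidine, with -0.93 (SE 0.079) and -1.15 (SE 0.054). They were not called at 12.5%, with 0.18 (SE 0.079) and -0.03 (SE 0.054), or at 25%, with 0.13 (SE 0.079) and 0.09 (SE 0.054).

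On day 6 no MCM2 to MCM7 subunit was called higher at 12.5% or 25% with all libraries. MCM2 had 3365 and 2978 at 12.5% and 3180, 3617 and 3211 at 25%, against 5241, 5879 and 5824 at 50% and 5205, 5897 and 5433 at 100%. These groups did not overlap, and the falls were -0.80 (SE 0.074, adjusted p = 8.23e-09) and -0.72 (SE 0.067, adjusted p = 6.65e-09). MCM6 had 3651 and 3648 at 12.5% and 3960, 4326 and 3829 at 25%, against 4519, 4614 and 4751 at 50% and 4640, 5024 and 4737 at 100%. It fell at both restricted levels, again without overlap, with -0.39 (SE 0.054, adjusted p = 3.83e-06) and -0.25 (SE 0.048, adjusted p = 0.000354). MCM5 was lower at 25%, with -0.18 (SE 0.063, adjusted p = 0.0376). That call was lost when any 1 of the 3 libraries of 100%, or replicate 1 or 3 of 25%, was left out (adjusted p 0.0586 to 0.147). MCM3, MCM4 and MCM7 were not called at either level of day 6. MCM7 at 25% had 0.13 (SE 0.050, adjusted p = 0.063), and without replicate 3 of 25% it was called higher, with 0.17 (adjusted p = 0.021).

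The genes that turn the loaded ring into the working helicase, MCM10, CDC45 and the 4 GINS genes, all fell without histidine (median -1.16). CDC45, the subunit that joins the ring at the start of S phase, had 634, 584 and 600.2 without histidine, 2368, 2151 and 2196 at 12.5%, 1931, 1879 and 2148 at 25%, 1312, 1355 and 1101 at 50% and 1072 and 1293 at 100% on day 3. The 12.5% and 25% libraries lay above all those at 50% and 100%. The fold changes were -0.96 (SE 0.12, adjusted p = 4.35e-07) without histidine, 0.92 (SE 0.12, adjusted p = 1.15e-06) at 12.5% and 0.75 (SE 0.12, adjusted p = 3.57e-05) at 25%. CDC45 was the 1 gene of these 6 called at 12.5% or 25% on day 3. MCM10, a factor needed for activation of the helicase, had 435, 469 and 491 without histidine, 1594, 1624 and 1568 at 12.5%, 1670, 1729 and 1593 at 25%, 1743, 1859 and 1575 at 50% and 1734 and 1833 at 100%. Without histidine it fell with no overlap, with -1.94 (SE 0.087, adjusted p = 2.21e-15). The partial levels gave -0.16 (SE 0.087) at 12.5% and -0.10 (SE 0.087) at 25%, not called. GINS1, GINS2, GINS3 and GINS4, which form the GINS complex, gave -1.24 (SE 0.18), -1.15 (SE 0.090), -1.18 (SE 0.10) and -0.85 (SE 0.15) without histidine. On day 6 GINS2 was lower at 25%, with 768 ± 18.6 at 25% against 922 ± 70.5 at 100% (SD, n = 3 each) and -0.26 (SE 0.080, adjusted p = 0.0213), and no other gene of these 6 was called at 12.5% or 25%. The GINS2 call was lost without replicate 2 of 100% (adjusted p = 0.129), and also without replicate 1 or 2 of 25% (0.0671 and 0.0502).

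PCNA, the sliding clamp, had 3608, 3415 and 3517 without histidine, 8130, 7905 and 8124 at 12.5%, 7508, 6653 and 6956 at 25%, 7453, 6441 and 6714 at 50% and 6668 and 6781 at 100% on day 3. All libraries without histidine lay below and all at 12.5% above those at 100%, with -0.94 (SE 0.076, adjusted p = 2e-10) and 0.26 (SE 0.076, adjusted p = 0.0109), while 25% and 50% overlapped 100%. The PCNA call at 12.5% was lost without either library of 100% (adjusted p = 0.0785 and 0.051). Of the clamp loader, RFC4 and RFC3, both small subunits, moved apart. RFC4 had 1106, 1092 and 1034 without histidine, 2938, 2735 and 2840 at 12.5%, 2491, 2576 and 2562 at 25%, 1672, 1583 and 1513 at 50% and 1490 and 1382 at 100%. RFC3 had 347, 457 and 419.9 without histidine, 810.4, 922 and 891 at 12.5%, 1009, 1025 and 920 at 25%, 1297, 1334 and 1468 at 50% and 1310 and 1325 at 100%. At 12.5% the RFC4 libraries lay above and the RFC3 libraries below those at 100%, a change of 0.98 (SE 0.068, adjusted p = 1.93e-11) for RFC4, the largest rise of the 42 genes at that level, and -0.59 (SE 0.11, adjusted p = 0.000191) for RFC3. Without histidine the changes were -0.41 (SE 0.068, adjusted p = 2.2e-05) for RFC4 and -1.70 (SE 0.11, adjusted p = 4.06e-12) for RFC3. RFC1, RFC2 and RFC5 fell there too, with -0.67 (SE 0.069), -1.12 (SE 0.13) and -0.87 (SE 0.097). RFC1, the large subunit, RFC2 and RFC5 were not called at 12.5% or 25% on day 3.

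The same opposite movement of RFC4 and RFC3 was present on day 6. RFC4 had 1855 and 1858 at 12.5% and 2155, 1974 and 1926 at 25%, against 1442, 1411 and 1380 at 50% and 1456, 1394 and 1400 at 100%. RFC3 had 798 and 731 at 12.5% and 767, 695 and 607 at 25%, against 958, 1049 and 1020 at 50% and 947, 1131 and 1093 at 100%. No library at the 2 lower levels overlapped one at 100% for either gene. The changes at 12.5% and 25% were 0.39 (SE 0.068, adjusted p = 9.05e-05) and 0.51 (SE 0.060, adjusted p = 5.03e-07) for RFC4 and -0.46 (SE 0.11, adjusted p = 0.00304) and -0.62 (SE 0.10, adjusted p = 4.59e-05) for RFC3. RFC2 fell too on day 6, with -0.43 (SE 0.13) at 12.5% and -0.38 (SE 0.12) at 25%. PCNA averaged 5010 ± 226 at 12.5% against 4049 ± 76.1 at 100% on day 6 (SD, n = 2 and 3), a rise of 0.31 (SE 0.076, adjusted p = 0.00362). At 25% on day 6 PCNA was called higher only without replicate 2 of 25% (adjusted p = 0.049). Of these day 6 calls at 12.5%, that of PCNA was lost without replicate 1 of 12.5% (adjusted p = 0.0752), that of RFC3 without replicate 2 of 12.5% (0.0666), and that of RFC2 without replicate 2 of 12.5% (0.192) or of 100% (0.0725). The RFC2 call at 25% was lost when replicate 2 or 3 of 100%, or replicate 3 of 25%, was left out (0.0532 to 0.122).

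**Figure D4:**
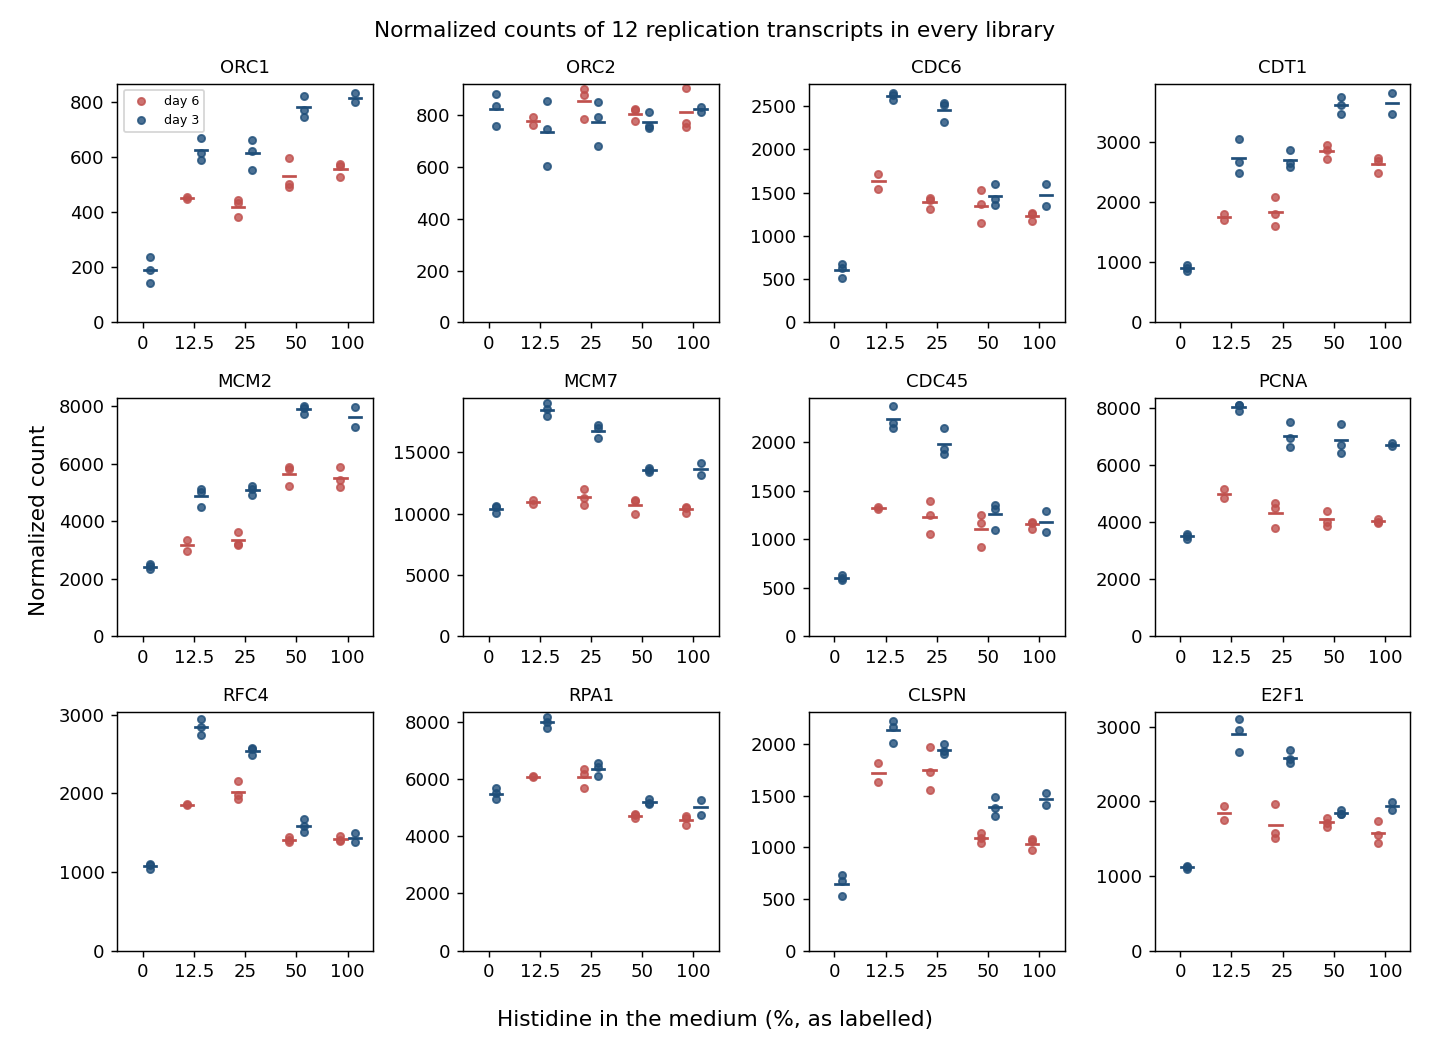
Normalized counts of 12 genes in each of the 25 libraries (points) with group means (bars), by histidine level from low to high, day 6 in red and day 3 in blue. CDC6, CDC45 and RFC4 peak at 12.5% and 25% on day 3, ORC1, CDT1 and MCM2 are below 100% at every level up to 25%, and ORC2 overlaps between the groups without histidine and at 100%.

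Of the 8 polymerase and primase genes, all fell without histidine (median -1.12). POLA1, the catalytic subunit of polymerase alpha, had 774, 788 and 787 without histidine, 1533, 1499 and 1668 at 12.5%, 1506, 1390 and 1500 at 25%, 1007, 1077 and 1058 at 50% and 1143 and 1225 at 100% on day 3. POLA2, its accessory subunit, had 452, 433 and 502 without histidine, 1374, 1398 and 1198 at 12.5%, 1122, 1020 and 967 at 25%, 637, 671 and 729 at 50% and 756 and 851 at 100%. Both had their highest mean at 12.5% and their lowest without histidine, with no overlap with 100% in either case. At 12.5% they rose by 0.40 (SE 0.090, adjusted p = 0.00117) and 0.72 (SE 0.11, adjusted p = 1.63e-05). POLE and POLE2, subunits of the leading-strand polymerase epsilon, were both lower at 12.5%. POLE had 1541, 1648 and 1666 without histidine, 3252, 2973 and 3234 at 12.5%, 3189, 3327 and 3313 at 25% and 3122, 3822 and 3428 at 50%, against 4059 and 3930 at 100%. It fell at the 3 lowest levels with no overlap, with -1.30 (SE 0.079, adjusted p = 7.85e-13), -0.34 (SE 0.079, adjusted p = 0.00164) and -0.29 (SE 0.079, adjusted p = 0.0103). POLE2 had 81.5, 80.6 and 129 without histidine, 174, 209.7 and 249 at 12.5%, 216, 239.7 and 246 at 25% and 397, 396 and 365 at 50%, against 401 and 267 at 100%. The 2 libraries at 100% were far apart, and the falls were -1.78 (SE 0.20, adjusted p = 1.06e-07) without histidine and -0.65 (SE 0.20, adjusted p = 0.0189) at 12.5%. POLE2 was not called at 25%, with -0.49 (SE 0.20, adjusted p = 0.102), or at 50%, with 0.24 (SE 0.20, adjusted p = 0.999), where its mean was above that at 100%. Without replicate 3 of 100% it was called lower at 25% (adjusted p = 0.0344). PRIM1 and PRIM2, the small and large primase subunits, fell without histidine with -1.43 (SE 0.22) and -1.19 (SE 0.12). POLD1, the catalytic subunit of polymerase delta, and POLD3, an accessory one, fell with -1.04 (SE 0.089) and -0.94 (SE 0.092). These 4 genes were not called at 12.5% or 25% on day 3, though POLD3 was called higher at 12.5% without replicate 2 of 12.5% (adjusted p = 0.0421). On day 6 POLA2 was higher at 12.5%, by 0.31 (SE 0.11), POLD3 was higher at 25%, by 0.26 (SE 0.083), and the other 6 were not called at these levels, though POLD1 was called lower at 25% without replicate 2 of 25% (adjusted p = 0.0282). The calls of POLE2 at 12.5% and POLE at 25% on day 3 were lost without replicate 1 of 100% (adjusted p = 0.377 and 0.0904), that of POLE2 also without replicate 1 of 12.5% (0.0931). On day 6 the POLA2 call was lost without either library of 12.5% or without replicate 2 or 3 of 100% (0.0531 to 0.413), and the POLD3 call when replicate 1 of 100%, or 1 or 2 of 25%, was left out (0.0519 to 0.142).

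FEN1, which trims the flaps of lagging-strand pieces, had 805, 798 and 822 without histidine, 2051, 1973 and 1964 at 12.5% and 1903, 1696 and 1688 at 25%, against 2073 and 2086 at 100% on day 3. Only the groups without histidine and at 25% were called, with -1.36 (SE 0.081, adjusted p = 5.66e-13) and -0.24 (SE 0.081, adjusted p = 0.0366), and no library of either overlapped those at 100%. The FEN1 call at 25% was lost without either library of 100% or replicate 2 or 3 of 25% (adjusted p 0.114 to 0.162). LIG1, the ligase that joins the pieces, had 1518, 1489 and 1453 without histidine, 3970, 3613 and 3770 at 12.5%, 3021, 2721 and 3037 at 25%, 2790, 2733 and 2673 at 50% and 2567 and 2802 at 100%. It was lowest without histidine and highest at 12.5%, with -0.85 (SE 0.078, adjusted p = 1.96e-09) and 0.50 (SE 0.078, adjusted p = 1.78e-05), and the 25% libraries reached down into the range of those at 100%, with 0.12 (SE 0.078, adjusted p = 0.318).

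Of the 3 subunits of RPA, the complex that coats exposed strands, RPA3 fell without histidine and RPA1 and RPA2 were not called. RPA1, the large subunit, had 5285, 5500 and 5682 without histidine, 7992, 8155 and 7799 at 12.5%, 6437, 6561 and 6101 at 25%, 5134, 5294 and 5165 at 50% and 4744 and 5276 at 100% on day 3. All 3 libraries without histidine were slightly above those at 100%, a difference of 0.13 (SE 0.058, adjusted p = 0.0855) that was not called. At 12.5% and 25% it rose by 0.67 (SE 0.058, adjusted p = 1.24e-09) and 0.35 (SE 0.058, adjusted p = 6.28e-05). RPA2, the middle subunit, averaged 1945 ± 52.4 without histidine, 3045 ± 103 at 12.5% and 2527 ± 46.2 at 25%, against 2122 ± 148 at 100% (SD, n = 3, 3, 3 and 2). Its changes were -0.12 (SE 0.087, adjusted p = 0.32) without histidine, 0.52 (SE 0.087, adjusted p = 3.84e-05) at 12.5% and 0.25 (SE 0.087, adjusted p = 0.0393) at 25%. RPA3, the small subunit, had 484, 412 and 458 without histidine against 822 and 891 at 100%, and fell with no overlap, with -0.93 (SE 0.10, adjusted p = 5.93e-08). On day 6 RPA1 had 6094 and 6073 at 12.5% and 6163, 6363 and 5702 at 25%, against 4794, 4739 and 4627 at 50% and 4386, 4714 and 4620 at 100%. The libraries of both lower levels lay above all those at 50% and 100%. The rises were 0.41 (SE 0.058, adjusted p = 5.48e-06) and 0.41 (SE 0.052, adjusted p = 1.31e-06). RPA2 rose at 12.5% on day 6, by 0.29 (SE 0.087), and RPA3 fell at 25%, with -0.38 (SE 0.092). The RPA2 call at 25% on day 3 was lost without any 1 of the libraries compared (adjusted p 0.0502 to 0.321), and that at 12.5% on day 6 without either library of 12.5% or replicate 1 or 3 of 100% (0.0607 to 0.124).

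CLSPN (Claspin), an adaptor of the checkpoint kinase at the fork, and TIMELESS, a part of the fork protection complex, had opposite directions at every partial level called. CLSPN had 527, 735 and 679 without histidine, 2228, 2014 and 2172 at 12.5%, 1935, 2004 and 1909 at 25%, 1485, 1382 and 1301 at 50% and 1411 and 1531 at 100% on day 3. On day 6 CLSPN had 1815 and 1635 at 12.5%, 1729, 1978 and 1554 at 25%, 1136, 1093 and 1043 at 50% and 1058, 971 and 1085 at 100%. On both days the 12.5% and 25% libraries lay above those at 50% and 100%. The rises at 12.5% and 25% were 0.54 (SE 0.11, adjusted p = 0.000426) and 0.41 (SE 0.11, adjusted p = 0.00812) on day 3 and 0.73 (SE 0.11, adjusted p = 1.34e-05) and 0.75 (SE 0.098, adjusted p = 2.08e-06) on day 6. Without histidine CLSPN fell, with -1.20 (SE 0.11, adjusted p = 2e-09). The call at 25% on day 3 was lost without replicate 1 of 100% (adjusted p = 0.105). TIMELESS had 1296, 1225 and 1177 without histidine, 3315, 3110 and 3278 at 12.5%, 3135, 3336 and 3101 at 25%, 3861, 3889 and 3994 at 50% and 3912 and 3962 at 100% on day 3. Its libraries at the 3 lowest levels lay below those at 50% and 100%, with -1.68 (SE 0.066, adjusted p = 1.73e-16), -0.28 (SE 0.066, adjusted p = 0.00165) and -0.30 (SE 0.066, adjusted p = 0.00122). On day 6 it fell, with -0.39 (SE 0.066) at 12.5% and -0.29 (SE 0.059) at 25%.

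E2F1, the factor that activates many of these genes, had 1127, 1134 and 1092 without histidine, 2964, 2659 and 3099 at 12.5%, 2565, 2509 and 2690 at 25%, 1838, 1883 and 1827 at 50% and 1884 and 1988 at 100% on day 3. Its mean was lowest without histidine and highest at 12.5%, both without overlap with 100%. The changes were -0.79 (SE 0.093, adjusted p = 1.47e-07) without histidine, 0.58 (SE 0.093, adjusted p = 2.1e-05) at 12.5% and 0.42 (SE 0.093, adjusted p = 0.00152) at 25%. On day 6 it was not called, with 0.22 (SE 0.093) at 12.5% and 0.09 (SE 0.083) at 25%, but without replicate 3 of 100% it was called higher at 12.5%, with 0.30 (adjusted p = 0.0329). UHRF1, which brings the DNA methyltransferase to newly copied DNA, had 3389, 3493 and 3288 without histidine, 9112, 8979 and 8821 at 12.5%, 8241, 7838 and 8258 at 25%, 5794, 6320 and 6224 at 50% and 6618 and 6706 at 100%. Its order was that of E2F1, with -0.97 (SE 0.065, adjusted p = 4.86e-12), 0.43 (SE 0.065, adjusted p = 1.11e-05) and 0.28 (SE 0.065, adjusted p = 0.00209). On day 6 it rose by 0.27 (SE 0.065) at 12.5%, a call lost without replicate 1 of 12.5% (adjusted p = 0.0751), and by 0.33 (SE 0.058) at 25%.

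Neighbouring levels were also compared. On day 3, 41 of the 42 genes were lower without histidine than at 12.5% (97.6%, against 12.5% of all genes called lower), none was higher (8.5% of all genes), and no further member passed an unadjusted p under 0.05 in limma. The median was -1.18, and the 1 gene not called was ORC2, with 0.18 (SE 0.11, adjusted p = 0.272). The largest falls were -2.12 (SE 0.099, adjusted p = 3.62e-15) for CDC6, -1.88 (SE 0.11, adjusted p = 2.55e-13) for CDC45, -1.78 (SE 0.078, adjusted p = 1.18e-15) for MCM10 and -1.78 (SE 0.20, adjusted p = 7.58e-07) for PRIM1. Between 12.5% and 25% on day 3, POLA2, LIG1, RPA1 and RPA2 were higher at 12.5% (4 of 42, against 5.41% of all genes) and none was lower (2.81% of all genes), where 1 member, MCM6, was lower at an unadjusted p under 0.05. At that unadjusted p, 2122 of the 22994 tested genes were lower. The 4 rises were 0.35 (SE 0.10, adjusted p = 0.0273) for POLA2, 0.37 (SE 0.069, adjusted p = 0.000995) for LIG1, 0.33 (SE 0.052, adjusted p = 0.000167) for RPA1 and 0.27 (SE 0.078, adjusted p = 0.0302) for RPA2. The RPA2 call was lost without any 1 of the 6 libraries (adjusted p 0.0532 to 0.116), and the POLA2 call when replicate 2 or 3 of 25%, or 1 or 2 of 12.5%, was left out (0.0898 to 0.125). In this step the split over all genes was 1243 higher and 646 lower as deposited, 581 higher and 1063 lower with each library scaled to the same sum, and 612 higher and 622 lower after quantile normalization. Those scalings left 2 members higher with 1 lower, and 2 members higher with 2 lower. Between 12.5% and 25% on day 6 no member was called by limma (0.204% of all genes higher and 0.67% lower), and 3 passed an unadjusted p under 0.05. Of the 22994 tested genes, 2432 passed that unadjusted p.

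With histidine at 100%, day 6 set against day 3 shows how the genes differed between the sampling days without restriction. The libraries of day 3 are numbered 1 to 14 and those of day 6 15 to 25. Day and library order therefore cannot be told apart, and a term for the library number modulo 8 does not separate them. Of the 42 genes, 24 were lower on day 6 (against 5.73% of all genes) and none higher (2.93% of all genes, and no member at an unadjusted p under 0.05 in limma), with a median of -0.37 for the members beside 0.02 for all genes. At that unadjusted p, 2078 of the 22994 tested genes were higher. All 6 of MCM2 to MCM7 were among the 24. The MCM5 call was lost in 4 of the 16 settings tried, among them scaling each library to the same sum and quantile normalization. The muscle marker sum was 115.4 to 130 on day 6 against 14.3 to 16.53 on day 3, the T-lymphoblast sum 61600 to 64100 on day 6 against 66040 to 70900 on day 3, and their part in the result was not tested. PCNA had 4020, 4135 and 3991 on day 6 against 6668 and 6781 on day 3. ORC6 had 356, 402 and 352 on day 6 against 628 and 559 on day 3. FEN1 had 1382, 1448 and 1307 on day 6 against 2073 and 2086 on day 3. The days did not overlap for these genes, which had the 3 largest falls, -0.73 (SE 0.076, adjusted p = 2.14e-07), -0.68 (SE 0.12, adjusted p = 0.000376) and -0.59 (SE 0.081, adjusted p = 1.99e-05). CDC45 and RFC4 had -0.03 (SE 0.12) and -0.02 (SE 0.068) and were not called. This comparison rests on 2 libraries of day 3: without replicate 3 of 100% on day 3, 11 members were lower. Without replicate 2 of 100% on day 6, RPA2 was called lower too (adjusted p = 0.0305). With each library scaled to the same sum, 17 members were lower (median -0.25) and all genes were split into 1381 higher and 593 lower, with a median of 0.14. After quantile normalization 20 members were lower and all genes were split into 915 higher and 848 lower. As deposited, 673 genes were higher and 1318 lower.

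The difference between days of the same restriction was tested in the same fit. At 12.5% against 100%, the change on day 6 was lower than on day 3 for 6 of the 42 genes (14.3%, against 2.36% of all genes) and higher for none (1.28% of all genes, and no member at an unadjusted p under 0.05 in limma). The 6 genes were MCM3, MCM5, MCM6, MCM7, CDC45 and RFC4. At an unadjusted p under 0.05 in limma, 1485 of the 22994 tested genes had a higher change on day 6. CDC45 had 1333 and 1311 at 12.5% against 1108, 1172 and 1180 at 100% on day 6, which do not overlap, with 0.20 (SE 0.12), beside 0.92 (SE 0.12) on day 3. The difference of the 2 changes was -0.73 (SE 0.17, adjusted p = 0.0134). That call was lost in 4 of the 21 settings tried, and without replicate 1 of 100% on day 3 the difference was -0.59. For MCM5 the change was -0.19 (SE 0.070) on day 6 and 0.38 (SE 0.070) on day 3, a difference of -0.57 (SE 0.099, adjusted p = 0.00104), and for RFC4 it was 0.39 (SE 0.068) on day 6 and 0.98 (SE 0.068) on day 3, a difference of -0.59 (SE 0.096, adjusted p = 0.000404). At 25% against 100%, CDC6, MCM5, MCM6, CDC45, GINS2 and RFC4 had a lower change on day 6 (14.3%, against 2.01% of all genes) and none a higher one (2.71% of all genes), where CLSPN alone was higher at an unadjusted p under 0.05. At that unadjusted p, 2073 of the 22994 tested genes were higher. The differences at 25% were -0.67 (SE 0.16, adjusted p = 0.013) for CDC45 and -0.57 (SE 0.15, adjusted p = 0.0223) for CDC6. Of the 22 settings tried, the CDC45 call was lost in 2 and the CDC6 call in 7. At 25% the split over all genes was 624 higher and 462 lower as deposited. It was 417 higher and 847 lower, with 11 members lower, when each library was scaled to the same sum, and after quantile normalization 494 higher and 675 lower with 8 members lower. At 12.5% 3 members were lower without replicate 1 of 100% on day 3 or replicate 2 of 12.5% on day 6, and RPA1 was called lower without replicate 3 of 100% on day 3 (adjusted p = 0.0331). At 25% E2F1 was called lower without replicate 2 of 25% on day 6 (adjusted p = 0.0167). At 25% 3 were lower when either library of 100% on day 3, or replicate 1 or 3 of 25% on day 3, was left out, and none with the library number as a term in the fit. The difference at 50% was called for no member and for 0.00435% of all genes.

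**Figure D5:**
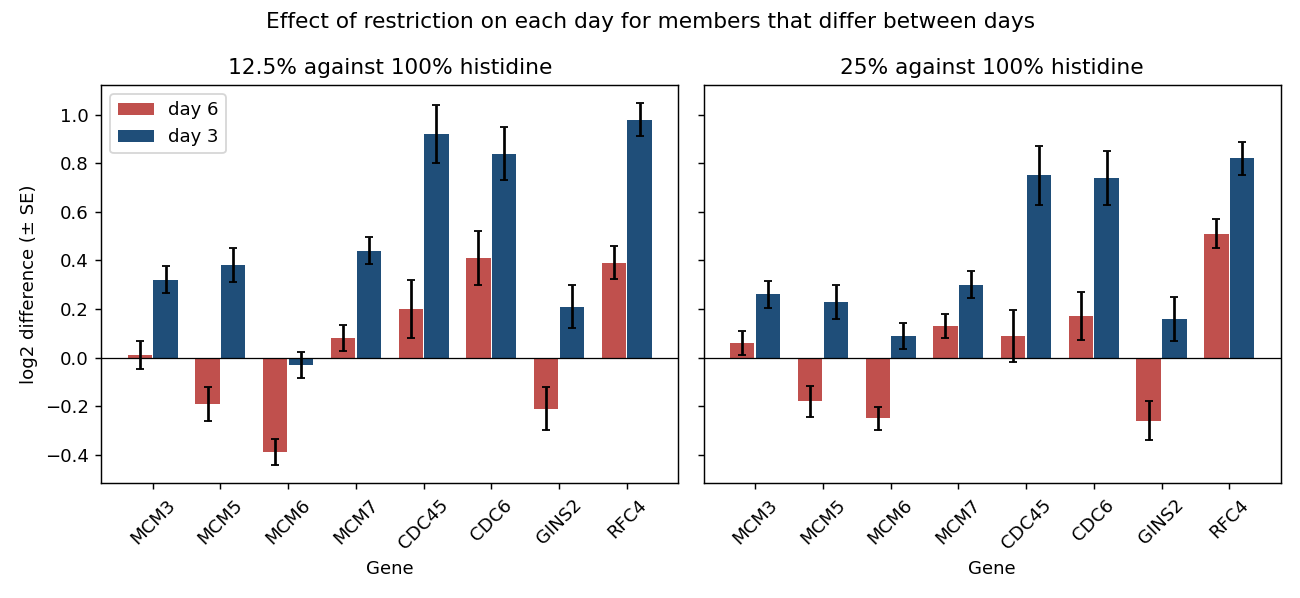
Log2 fold change with its SE of 12.5% and 25% against 100%, on day 6 (left) and day 3, for 8 genes with a called difference between days. For CDC45 the changes at 12.5% are 0.20 on day 6 and 0.92 on day 3, and for MCM5 -0.19 and 0.38.

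Other genes of the pathway, taken from lists of their names, give the frame for the 42. Over all tested genes, 16.1% were lower and 14.8% higher without histidine on day 3, and 12% were lower and 14.2% higher at 12.5%. Of 29 other replication factors, 22 were lower (75.9%) and 3 higher (10.3%) without histidine on day 3 (median -0.78), and 4 were lower (13.8%, near the share of all genes) and 10 higher (34.5%) at 12.5% (median 0.19). CHAF1B, a subunit of the assembly factor that places histones on new DNA, averaged 413 ± 27.7 without histidine against 1380 ± 25.3 at 100% (SD, n = 3 and 2), with -1.74 (SE 0.10, adjusted p = 4.49e-13). Of 10 genes of deoxynucleotide supply, 6 were lower (60%) without histidine (median -0.77), and 4 were higher (40%) at 12.5% (median 0.35). DTYMK, the thymidylate kinase, averaged 1712 ± 119.5 at 12.5% against 685 ± 82 at 100% (SD, n = 3 and 2), with 1.32 (SE 0.12, adjusted p = 2.78e-09). Of 24 other E2F and G1/S regulators, 15 were lower (62.5%) and 2 higher (8.33%) without histidine (median -0.55), and 3 were lower (12.5%, near the share of all genes) and 10 higher (41.7%) at 12.5% (median 0.20). E2F2, another activating E2F factor, averaged 3269 ± 208 at 12.5% against 2137 ± 80.9 at 100%, with 0.61 (SE 0.080, adjusted p = 1.24e-06). CDC25A, the phosphatase that activates the kinase CDK2, fell without histidine, with -1.61 (SE 0.080, adjusted p = 1.74e-14).

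The 25 genes of G2/M and mitosis stand beside the 42 as the next phase of the cycle. Without histidine on day 3 all 25 were lower (median -1.55, against 16.1% of all genes lower), and at 12.5% 17 were higher (68%, against 14.2%) and 3 lower (12%, the share of all genes), with a median of 0.45. At 25% on day 6, 23 were higher (92%, against 11% of all genes, median 0.76). At 25% on day 3, 5 were higher (20%, against 9.81%) and 6 lower (24%, against 9.72%), with a median of -0.15. At this level 21 of the 25 had a called difference between days, all with the higher change on day 6 (84%, against 2.71% of all genes, median difference 0.73). The members had a median of 0.07 at 25% on day 6 and 0.12 on day 3, a median difference of -0.11, with 6 lower. TPX2, a spindle assembly factor, averaged 9902 ± 553 at 25% against 5163 ± 185 at 100% on day 6 (SD, n = 3 each), with 0.94 (SE 0.050, adjusted p = 2.97e-13). At 100%, 21 of the 25 were lower on day 6 than on day 3 (84%, against 5.73% of all genes, median -0.40).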

How the data were processed

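QIAshredder and RNeasy Mini columns were used for RNA extraction, and 1 µg of RNA went into Illumina libraries that keep strand, per the labels' protocols. FastQC 0.11.9, kallisto 0.50.1, DESeq2 1.44.0 and the build GRCh38 are named, per the submitters' processing notes. The sources used here do not give what each tool did, the annotation or whether counting used strand. The values deposited by the authors are a normalized signal per gene (counts scaled between libraries). Whole reads could not be recovered, since 55.59% to 75.41% of a library's low values (up to 20 reads) came within 0.05 of a whole multiple of 1 read, so no count model was run and the precision set by depth is unknown.

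Log2(value + 1) was fitted with limma 3.58.1 (R 4.3.3, statmod 1.5.0), with a mean for each of 9 groups, an intensity trend and robust moderation, over the 22994 genes that reached 10 in 2 or more libraries. This scale understates the change of low genes. All 25 libraries shared 1 estimate of the spread (median 25.22 degrees of freedom), and Benjamini-Hochberg adjustment was made separately in each of 14 comparisons. On data simulated for day 3 without histidine against 100%, with 200 of 22994 genes changed, 90% of the genes changed by 1 on the log2 scale and 50% of those changed by 0.5 were called, with 8 false calls. The changed genes were drawn from those with a mean value over 100, and the noise was normal and independent. In the data 3712 genes were called lower and 3411 higher there, so these shares may not carry over, and low genes were not covered. The settings tried were pseudocounts of 0.5 and 10, no filter or a minimum of 50, total-sum scaling, quantile normalization, moderation without trend and robust, and only the groups compared. Further settings were the replicate number as a block, the library number in the labels modulo 8 as a term, each library left out, and 3 day 6 libraries left out together (replicate 3 of 100% and of 50% and replicate 2 of 25%).

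The members, the lists and the settings were chosen with earlier results of these data known. The rule for named genes took the 3 largest rises and 3 largest falls among called members of each comparison, and members against the majority of their role. It added 13 genes fixed by name (ORC1, CDC6, CDT1, MCM2, CDC45, PCNA, POLA1, FEN1, RPA1, CLSPN, E2F1, UHRF1 and GMNN) and the 2 genes with the smallest p of each pathway list, of which 1 or more are described. Other members were given values after these had been seen, and the CCAAT and CHR motifs were added after the design.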

Additional observations from a re-analysis of the deposited data

Results flagged for a closer look

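The change against 100% histidine differed between the days, by a test of the difference itself, for 12 pairs of gene and level among the 42 genes. Each value is the log2 fold change on day 6 minus that on day 3, and all are negative. At 12.5% the difference was -0.32 for MCM3, -0.57 for MCM5, -0.37 for MCM6, -0.36 for MCM7, -0.73 for CDC45 and -0.59 for RFC4. At 25% it was -0.57 for CDC6, -0.41 for MCM5, -0.34 for MCM6, -0.67 for CDC45, -0.42 for GINS2 and -0.32 for RFC4. The 12.5% and 25% differences share the libraries at 100%. At 12.5% the differences of MCM5, MCM6 and RFC4 were called in every setting tried, and at 25% none was. No group holds 4 or more libraries, so no library was tested as an outlier.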

How the results depend on the processing

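Over all settings no member's change reversed its direction with a call, 9970 values stayed on their side of the threshold, 265 lost the call and 55 gained it. All 38 calls without histidine on day 3 against 100% held in every setting, as did 21 of 25 at 12.5% on day 3, 8 of 23 at 25% on day 3, and 40 of 41 without histidine against 12.5%. On day 6 10 of 18 held at 25% and 8 of 15 at 12.5%. The same was true of 11 of 24 for 100% on day 6 against day 3, 1 of 4 (LIG1) for 12.5% against 25% on day 3, and 3 of 6 and 0 of 6 for the differences between days at 12.5% and 25%. With the library number modulo 8 in the fit, 4 members were lower and 7 higher at 25% on day 3, and 5 lower and 5 higher at 25% on day 6. The same term gave 2 higher at 12.5% against 25% on day 3, 13 lower for 100% on day 6 against day 3, and 0 had a lower difference between days at 25%. Total-sum scaling gave 4 lower at 25% on day 3, 1 lower and 2 higher at 12.5% against 25% on day 3, and 11 with a lower difference between days at 25%. Quantile normalization gave 10 lower at 12.5% on day 6, and 2 lower and 2 higher at 12.5% against 25% on day 3. With only the groups compared, 5 were higher at 25% on day 6 and 7 at 12.5% against 25% on day 3. Without the trend and robust moderation, 2 were higher at 12.5% against 25% on day 3, and 3 had a lower difference between days at each of 25% and 12.5%. Without the 3 libraries that stand apart, 6 were lower at 25% on day 6. The causes of these shifts were not tested.

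Leaving out 1 library at a time gave 4 to 7 members lower and 8 to 15 higher at 25% on day 3, and 0 to 1 higher without histidine. On day 6 it gave 6 to 10 lower and 5 to 8 higher at 25%, and 4 to 9 higher at 12.5%. It gave 2 to 3 higher at 12.5% against 25% on day 3, 11 to 24 lower for 100% on day 6 against day 3, and 3 to 5 and 3 to 7 with a lower difference between days at 25% and 12.5%. Where this leaves 1 library in a group, that library is assumed to vary like the other groups. The replicate numbers do not pair the libraries: deviations of same-numbered libraries had a median correlation of 0.00 over 92 pairs, and 8 of 25 libraries lay closest to one of their own number. With the replicate number as a block, 38 members were lower without histidine on day 3, 6 lower and 18 higher at 12.5%, and 6 lower and 15 higher at 25%. The block gave 10 lower and 8 higher at 25% on day 6, 6 lower and 8 higher at 12.5% on day 6, 41 lower without histidine against 12.5%, and 24 lower for 100% on day 6 against day 3. Groups of 2 or 3 libraries and the unknown depth limit every comparison.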
